A study of Brassica rapa subsp. chinensis with 2 samples.

Results

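The basic helix-loop-helix (bHLH) transcription factors of *B. rapa* stems were compared between the lines ‘FT’ and ‘CX001’. Members were taken by name from the 33087 genes of the deposited table, as the 155 genes whose Swiss-Prot match is described as a transcription factor bHLH (146 genes) or a transcription factor PIF (9 genes). They spread over 88 Arabidopsis proteins, and they are called by the name of that protein and by their own ID. bHLH genes whose match goes by another name, such as *FIT*, *PIL1* or *SPCH*, are not members, and 83 such genes are counted near the end.

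‘FT’ is a doubled-haploid (DH) line of Chinese cabbage with waxy stems, labelled as the control, and ‘CX001’ is a DH line of flowering Chinese cabbage with wax-less stems, a recessive trait named *wlm1*. Stems were sampled at bolting, and 3 libraries were sequenced per line. The labels name no treatment, and per the methods the germinated seeds of both lines were vernalised in the cold before planting. Each line is 1 homozygous genotype raised by microspore culture from its own cultivar, so an effect of *wlm1* and any other difference between the crop types cannot be told apart. Whether the libraries came from separate plants is not stated, so the p-values measure only the spread between these libraries, which may be technical. A whole stem holds many cell types, and fewer cells of a type and less RNA per cell cannot be told apart.

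The bHLH domain carries a basic stretch that touches DNA, usually at E-box motifs, and a helix-loop-helix through which these proteins pair. Partners decide much of what a bHLH protein does, and members that lack the basic stretch can hold others away from DNA. In plants the family is known for work in light and shade responses, in the uptake of iron, in flowering time, in stomata and root hairs, in vascular cell division and in jasmonate and brassinosteroid signalling. The annotation fitted the names, as 146 members (94.2%) carried the GO term protein dimerization activity against 0.51% of the other genes.

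The deposited table gives 1 mean of normalised read counts per line. The digits of each mean were sufficient to work out the reads of each of the 3 libraries behind it for 99.94% of genes in ‘CX001’ and 99.96% in ‘FT’, among them all members. The libraries found in this way carry no label, and the numbers 1 to 3 only name them. They held between 15281625 and 17065381 reads in the genes whose reads could be worked out. Correlations of log2 values were 0.951 to 0.978 within a line and 0.743 to 0.781 between lines. BraA09g066480.3C, the *CER1* homologue mapped for the wax-less trait, had 14256, 16508 and 20003 normalised reads in the ‘FT’ libraries and 5.66, 11.6 and 25.7 in those of ‘CX001’, far lower in every library of the wax-less line. Values below are normalised reads, that is reads divided by the size factor of the library, in the order of libraries 1, 2 and 3. Differences are ‘CX001’ minus ‘FT’ on the scale of log2(normalised reads + 1), with their standard error (SE). Genes whose mean reached 10 in ‘FT’ or ‘CX001’ were tested with limma, with Benjamini-Hochberg adjustment over all 25969 genes tested, and a gene was called higher or lower at an adjusted p under 0.05 and a difference over 1 in size.

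Of the 155 members, 113 reached the minimum and were tested, and 42 had a mean under 10 in both lines. In ‘CX001’ stems 24 members were higher, which is 21.2% of those tested, against 14.5% of all genes tested. Another 16 members were lower, or 14.2%, against 16.1% of all genes, so the share of falls was near the background. These shares of all genes tested, 14.5% higher and 16.1% lower, are the background for the groups and lists below. The remaining 73 members (64.6%) were not called, and 14 of them had an adjusted p under 0.05 with a difference within 1. The median difference over tested members was -0.0003, against 0.0006 over all genes, with a middle range from -0.72 to 0.81 against -0.66 to 0.59. Single members ranged from -5.88 to 5.23. No library of one line overlapped those of the other for 39 of the 40 called members, against 99.0% of all called genes, and for 69 of the 113 tested members (61.1%), against 59.3% of all genes tested.

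**Figure D1:**
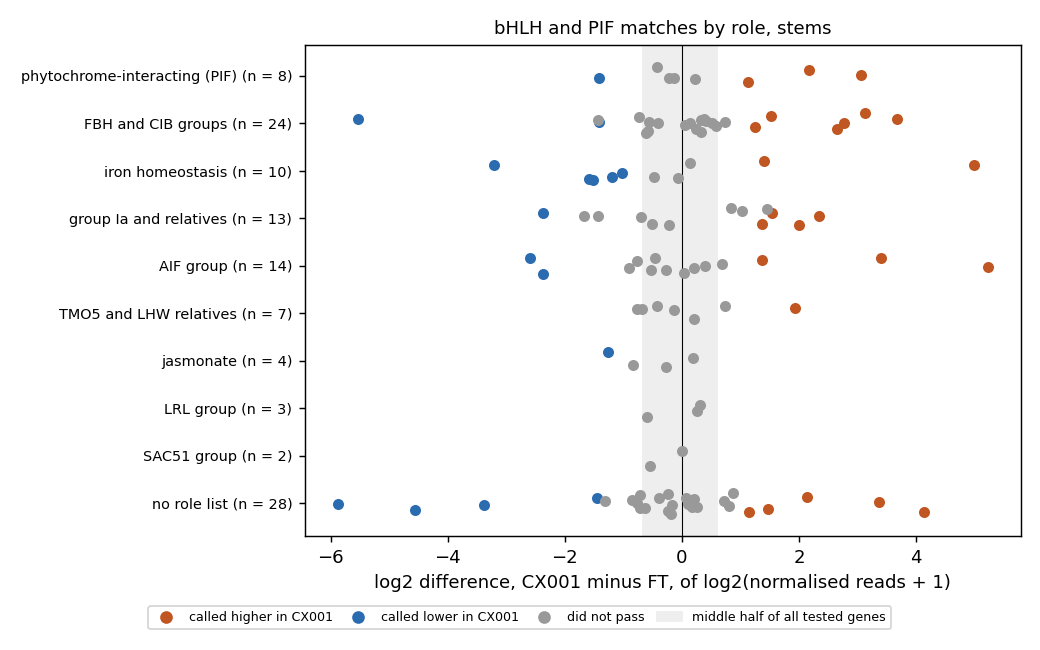
Differences between ‘CX001’ and ‘FT’ for the 113 tested members, grouped by role, as 1 point per gene on the scale of log2(normalised reads + 1). Points right of 0 were higher in ‘CX001’, coloured points were called (24 higher, 16 lower), and the grey band spans the middle range of all tested genes, from -0.66 to 0.59. Every role group with called members but the jasmonate and TMO5 groups holds calls on both sides.

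The phytochrome-interacting factors (PIFs) bind the red and far-red light receptors and are removed in light, and in Arabidopsis they drive elongation in shade and warmth and hold back germination. In ‘CX001’ stems 3 of the 8 tested PIF matches were higher, 1 was lower and 4 were not called (background 14.5% and 16.1%). The match with the most reads was *PIF5* (BraA09g049120.3C, A09:36776093-36779397), a promoter of shade elongation. It had 508, 501 and 550 normalised reads in ‘FT’ and 1190, 994 and 1248 in ‘CX001’, a difference of 1.13 (SE 0.13, adjusted p = 0.00024). All ‘CX001’ libraries thus stood well above all ‘FT’ libraries. *PIF4* (BraA04g030640.3C), which acts with *PIF5* and in warmth, had 0.962, 2.89 and 3.16 against 21.7, 20.3 and 37.5 (difference 3.06, SE 0.47, adjusted p = 0.0011). It was low in either line, and its ‘FT’ value rests on 7 reads. The *PIF6* match BraA09g051610.3C had 69.3, 68.4 and 49.5 normalised reads against 513, 167 and 259 (difference 2.17, SE 0.39, adjusted p = 0.0023), with a wide spread in ‘CX001’.

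*PIF3* went the other way. Its match BraA06g006410.3C (A06:3661743-3664358), an early partner of phytochrome in seedling greening, had 643, 659 and 586 normalised reads in ‘FT’ and 268, 293 and 165 in ‘CX001’, a difference of -1.42 (SE 0.22, adjusted p = 0.0011). The second *PIF3* match, BraA09g062360.3C, had 192, 173 and 196 against 174, 118 and 130 and was not called (difference -0.43, SE 0.20). *PIF1* (BraA07g000720.3C), which holds back germination in the dark, had 202, 336 and 297 against 277, 258 and 211, and its libraries overlapped (difference -0.14, SE 0.22). Overlap was also seen for the second *PIF4* match, BraA03g022510.3C, at 90.5, 130 and 59.0 against 234, 29.9 and 61.1. The second *PIF6* match, BraA07g024970.3C, overlapped too, at 107, 117 and 120 against 219, 74.3 and 148. *PIF7* (BraA03g044270.3C), a shade factor, was under the minimum at 2.89, 2.89 and 0 normalised reads in ‘FT’ and 6.61, 5.79 and 7.50 in ‘CX001’.

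Around the PIFs, 48 genes matched a list of their partners and targets, of which 44 were tested, 13 were higher and 10 lower. Beside these counts stands a background of 14.5% higher and 16.1% lower. The largest fall was *PIL1* (BraA03g024300.3C), a shade-induced bHLH gene, with 417, 393 and 198 normalised reads in ‘FT’ and no read in ‘CX001’. The second *PIL1* match, BraA05g000890.3C, was higher, with 266, 315 and 350 against 804, 415 and 816 (difference 1.07, SE 0.27, adjusted p = 0.011). The largest rise was *XTH15* (BraA08g009760.3C), which rebuilds wall xyloglucan, with 25.99, 21.2 and 33.7 against 4601, 3976 and 3750. The evening complex, which represses *PIF4* and *PIF5* at night in Arabidopsis, was matched by 9 genes, all tested, of which 4 were lower, 2 were higher and 3 were not called. Both *LUX* and *ELF4* had matches on either side. Of the 4 *LUX* matches BraA03g034490.3C rested on 1 read in ‘CX001’ against 34.6, 27.9 and 29.5 normalised reads in ‘FT’, and BraA03g034470.3C had 185, 169 and 128 against 14.2, 5.79 and 10.7, both lower, while BraA01g025150.3C was higher with 237, 198 and 272 against 448, 465 and 513 (difference 1.02, SE 0.16, adjusted p = 0.0012) and BraA06g020220.3C was not called. The other calls were the *ELF3* match BraA04g019090.3C at -2.998 and the *ELF4* matches BraA03g021240.3C at -2.73 and BraA04g028140.3C at 1.71. The growth regulators *PRE5* (BraA07g019970.3C) and *IBH1* (BraA04g030590.3C) differed by -4.51 (SE 0.72) and 3.53 (SE 0.68), although the *IBH1* value rests on 1 read in ‘FT’. Of the 4 *PRE5* matches 2 were lower and 2 were not called, and both *IBH1* matches were higher.

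Members of the FBH and CIB groups formed the largest role group. FBH proteins activate the flowering gene *CONSTANS* in Arabidopsis, and CIB1 and its relatives work with the blue-light receptor CRY2 on the florigen gene. Of 26 members 24 were tested, 6 were higher, 2 were lower and 16 were not called (background 14.5% and 16.1%). The largest rise of a well-read gene was in *bHLH78* (BraA06g035500.3C, A06:23959507-23961862), a CIB1 relative. It had 91.4, 44.3 and 52.7 normalised reads in ‘FT’ and 425, 806 and 1370 in ‘CX001’, a difference of 3.68 (SE 0.43, adjusted p = 0.00028). *bHLH62* (BraA05g038330.3C, A05:26195901-26197915), another relative, had 124, 73.2 and 114 against 468, 722 and 984 (difference 2.76, SE 0.30, adjusted p = 0.0002). In both genes the lowest ‘CX001’ library lay above the highest ‘FT’ library, and ‘CX001’ library 3 was the highest.

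Of the other rises, *bHLH60* (BraA04g003050.3C), a flowering promoter, had 177, 254 and 212 normalised reads against 665, 372 and 520 (difference 1.25, SE 0.23, adjusted p = 0.0031). *bHLH74* (BraA08g032240.3C) had 55.8, 52.0 and 29.5 against 109, 177 and 110 (difference 1.52, SE 0.33, adjusted p = 0.0059). *bHLH130* (BraA04g029740.3C), of the FBH group, had 6.74, 8.67 and 3.16 against 15.1, 94.6 and 48.2 (difference 2.64, SE 0.66, adjusted p = 0.012). These genes were lower in every ‘FT’ library, but the ‘CX001’ libraries of *bHLH130* spread widely. The second *bHLH78* match, BraA02g039720.3C, had 0, 4.81 and 0 normalised reads against 2.83, 17.4 and 53.6 (difference 3.12, SE 1.06, adjusted p = 0.039). It is the 1 called member whose libraries overlapped between the lines, and its ‘FT’ value rests on 5 reads. The call is lost without ‘CX001’ library 2 (adjusted p = 0.101) or 3 (adjusted p = 0.111) and without ‘FT’ library 1 (adjusted p = 0.121) or 3 (adjusted p = 0.126).

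Both falls of the group were matches to *bHLH77*, a CIB relative. BraA10g009370.3C (A10:7207771-7208920) had 43.3, 51.0 and 42.2 normalised reads in ‘FT’ and none in ‘CX001’. With 3 reads per line taken as the floor (0.993 as a mean), it was at least 45.8-fold lower (adjusted p = 1.8e-05). BraA05g015350.3C had 178, 179 and 112 against 64.2, 58.9 and 48.2 (difference -1.41, SE 0.26, adjusted p = 0.0028). The remaining *bHLH77* matches were the members with the highest level per kb of coding length in these stems. BraA01g030310.3C, the top one, had 575, 638 and 670 normalised reads against 926, 1271 and 963, and its difference of 0.73 (SE 0.15, adjusted p = 0.0047) stayed under the minimum size. BraA07g009390.3C had 788, 747 and 597 against 819, 800 and 899 and was not called.

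Xylem markers were set beside the rises of *bHLH62* and *bHLH78*. The 17 genes of the xylem list, cellulose synthases of secondary walls, laccases and proteases among them, summed to 7918, 5819 and 7747 normalised reads in ‘FT’ and to 10052, 20399 and 31186 in ‘CX001’. Of the 15 tested, 8 were higher and 0 lower, against 14.5% and 16.1% of all genes tested. In ‘CX001’ 1 of the 17 was at 0. The ‘CX001’ libraries took the same order in the xylem sum as in *bHLH62* and *bHLH78*. The share of all genes with this order was not counted. ‘CX001’ library 3 was the highest in 11 of the 24 tested FBH and CIB members (45.8%), against 33.4% of all genes tested. Within the list *CESA4* (BraA06g043400.3C: 910, 3165 and 9173), *CESA7* and *FLA11* matches and *CESA8* BraA03g048470.3C took that order. All matches of *XCP1* (2151, 3199 and 2747), *XCP2* and *LAC17* were highest in library 2. Among the other called rises, the second *bHLH78* match took the order, *bHLH60* was highest in library 1, and *bHLH74* and *bHLH130* in library 2. Leaving out each library in turn kept the calls of *bHLH62* (differences of 2.51 to 3.05) and *bHLH78* BraA06g035500.3C (3.27 to 4.11). The part of xylem RNA in these values was not tested. Phloem markers were 0 higher and 2 lower of 10 tested, and epidermis markers 0 and 0 of 7.

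**Figure D2:**
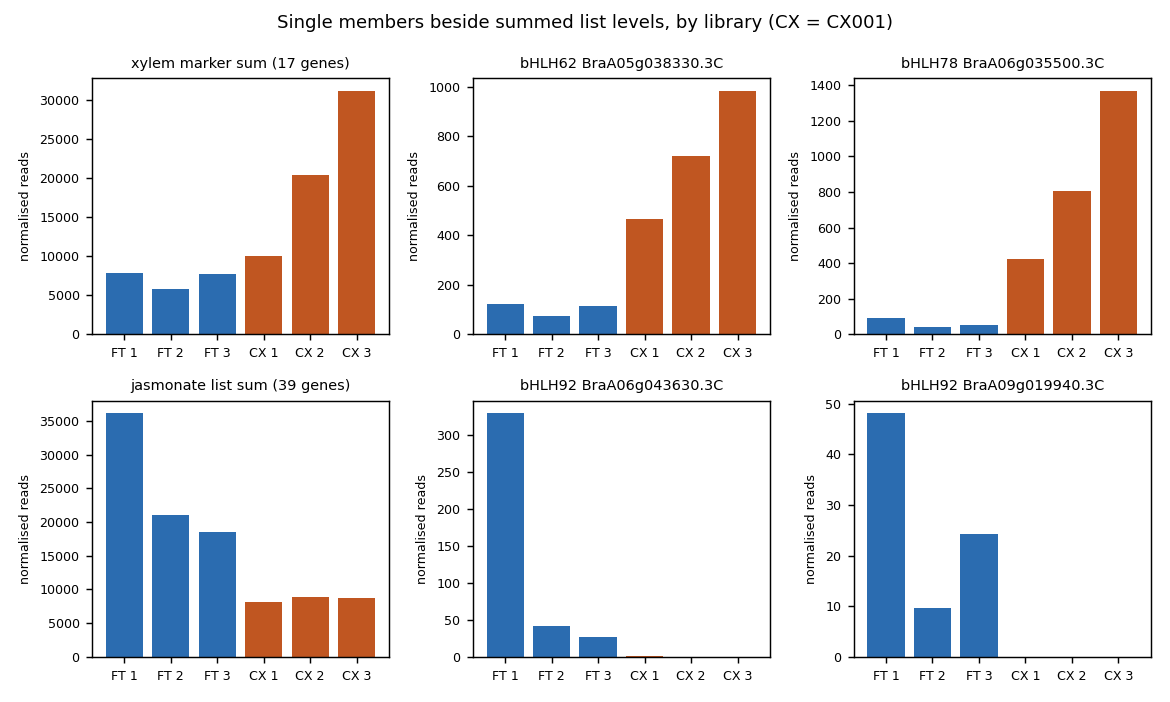
Normalised reads per library (linear axes from 0) for the summed xylem markers (17 genes) beside *bHLH62* and *bHLH78*, and for the summed jasmonate list (39 genes) beside both *bHLH92* matches. Each bar is 1 library, with ‘FT’ in blue and ‘CX001’ (CX) in orange. The xylem sum runs from 10052 to 31186 over the ‘CX001’ libraries in the order of *bHLH62* (468 to 984), though *XCP1*, *XCP2* and *LAC17* matches in it do not. The jasmonate sum is highest in ‘FT’ library 1, as *bHLH92* is.

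Of 15 genes matched to the photoperiodic flowering list, 14 were tested, 2 were higher and 4 lower (background 14.5% and 16.1%). Both rises were florigen genes, *TSF* (BraA07g031650.3C), with no read in ‘FT’ and 74.6, 79.1 and 168 normalised reads in ‘CX001’, and *FT* (BraA02g016700.3C), with 7.70, 2.89 and 2.11 against 39.6, 117 and 271. The gene *FT* is not to be mistaken for the line of that name. The falls were 1 of the 3 *SOC1* matches (BraA04g031640.3C) at -6.25 (SE 0.60), both *CRY2* matches (BraA10g002940.3C at -2.66 and BraA08g034900.3C at -1.42) and *CRY1* (BraA09g029430.3C, -1.27).

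Iron homeostasis is run in plants by several bHLH groups. In Arabidopsis bHLH34, bHLH104 and bHLH115 switch on genes of iron deficiency with URI (bHLH121), POPEYE (bHLH47) restrains part of that response, bHLH11 represses it, and bHLH18 and its relatives bring about loss of the uptake regulator FIT. Here 2 of 10 tested members were higher, 5 were lower and 3 were not called, and another 5 of the 15 were under the minimum. Over all genes tested 14.5% were higher and 16.1% lower. Activators and POPEYE matches were among the falls. *bHLH115* (BraA05g018580.3C, A05:11585471-11586642) had 334, 497 and 371 normalised reads in ‘FT’ and 141, 122 and 130 in ‘CX001’ (difference -1.59, SE 0.19, adjusted p = 0.00029). *bHLH121* (BraA01g033380.3C, A01:22837559-22838747) had 654, 757 and 718 against 345, 288 and 302 (difference -1.19, SE 0.13, adjusted p = 0.00021). In neither gene did the lines come near each other. The other activators among the members were not called. *bHLH104* (BraA04g007580.3C) had 526, 515 and 470 against 434, 466 and 548. The *bHLH34* matches BraA01g030880.3C and BraA07g009970.3C differed by -0.47 (SE 0.20) and 0.14 (SE 0.14). Outside the members, *ILR3*, an iron bHLH gene named otherwise, had 3 matches. BraA03g013800.3C was lower (difference -1.13, SE 0.24, adjusted p = 0.0052) and 2 were not called.

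The 3 *bHLH47* (POPEYE) matches did not move together. BraA06g019320.3C had 224, 217 and 220 normalised reads in ‘FT’ and 57.6, 56.9 and 137 in ‘CX001’ (difference -1.51, SE 0.34, adjusted p = 0.0068). BraA06g024120.3C had 160, 199 and 108 against 66.1, 69.5 and 86.8 (difference -1.02, SE 0.27, adjusted p = 0.014), just past the minimum size. Its call is lost without ‘CX001’ library 1 (-0.95) or 2 (-0.98) and without ‘FT’ library 1 (-0.98) or 2 (-0.82). BraA01g024930.3C (A01:14616680-14617340) had no read in ‘FT’ and 32.1, 30.9 and 28.9 normalised reads in ‘CX001’, which puts it at least 30.8-fold higher (adjusted p = 3.4e-05). A gene that is absent from a line or too different from the reference to be read, and a gene that is not transcribed, cannot be told apart in such values.

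Of the repressors, *bHLH11* (BraA03g059850.3C) was higher, with 10.6, 17.3 and 9.49 normalised reads against 34.9, 27.0 and 39.6 (difference 1.40, SE 0.36, adjusted p = 0.013). *bHLH19* (BraA04g016700.3C) had 22.1, 1.93 and 10.5 in ‘FT’ and none in ‘CX001’, at least 11.6-fold lower (adjusted p = 0.0083). Its ‘FT’ libraries spread widely, and the value rests on 35 reads. Outside the members, *FIT* (BraA07g018580.3C), the regulator of root iron uptake, had 116, 149 and 156 normalised reads in ‘FT’ and 2.83, 2.90 and 10.7 in ‘CX001’ (difference -4.65, SE 0.48). The second *FIT* match, BraA03g024930.3C, was higher, at 5.77, 0 and 1.05 against 19.8, 15.4 and 10.7 (difference 2.72, SE 0.70, adjusted p = 0.013), and the third, BraA04g020140.3C, was under the minimum. Of the 26 genes of iron uptake and storage, 19 were tested, 3 were higher and 5 lower (background 14.5% and 16.1%). The falls were *YSL1* (BraA08g020980.3C, with no read in ‘CX001’), *NAS2* (BraA10g013920.3C, -2.79), *FRO2* (BraA09g066170.3C, -2.24), *NRAMP3* (BraA09g054370.3C, -1.79) and the ferritin gene *FER3* (BraA07g022210.3C, -1.58). Further matches of 3 of these genes were not called. Their means were 186 against 232 in *YSL1* BraA01g014850.3C, 438 against 548 in *NRAMP3* BraA03g025770.3C and 976 against 1129 in *FER3* BraA09g046830.3C. The ferric reductase gene *FRO7* (BraA10g008260.3C) was the largest rise, with 1019, 754 and 818 against 2158, 2380 and 4213 normalised reads.

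**Figure D3:**
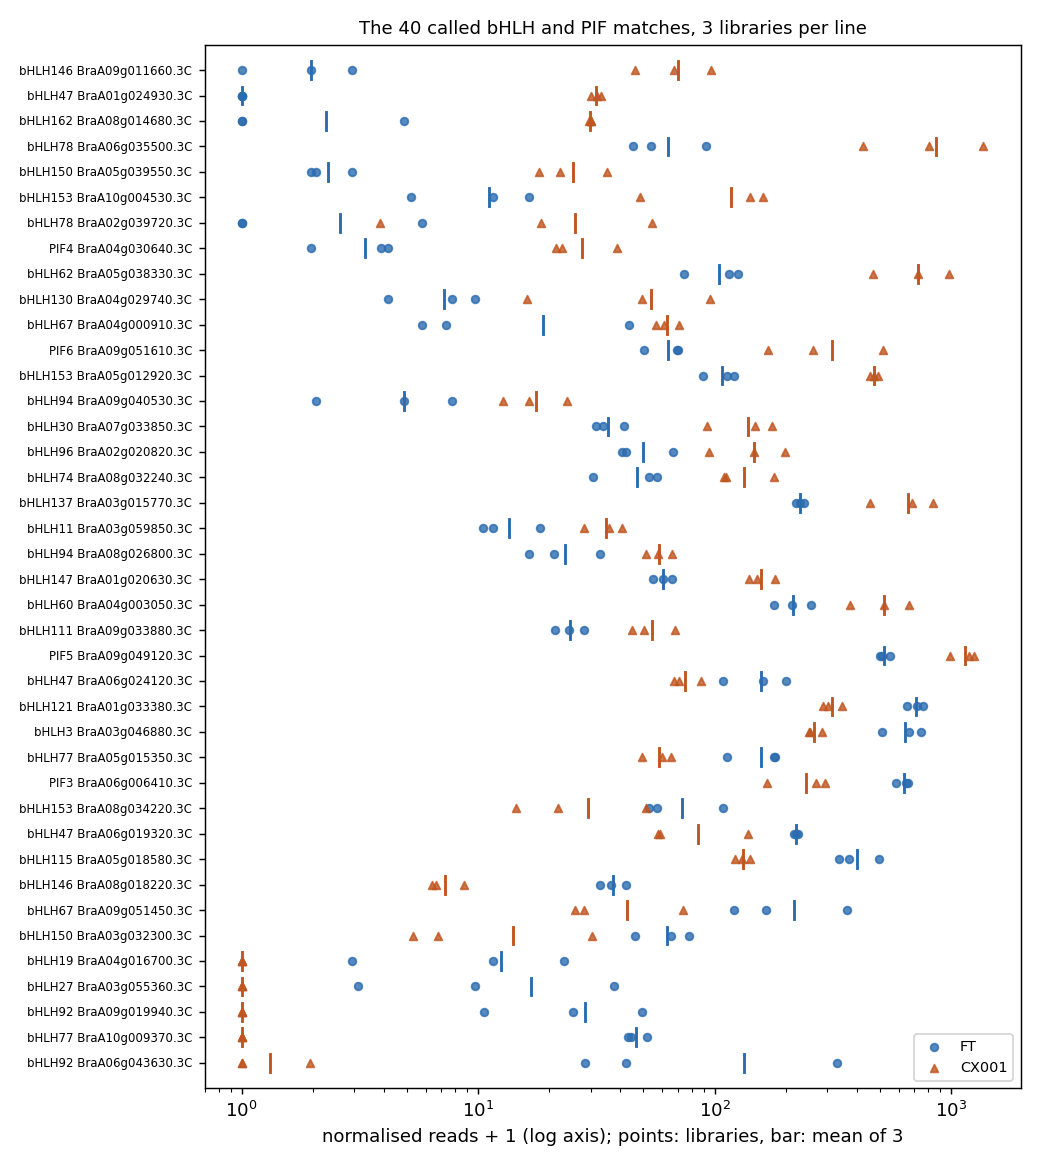
Normalised reads + 1 (log axis) in each of the 3 libraries of ‘FT’ (blue circles) and ‘CX001’ (orange triangles) for the 40 called members, ordered by the difference between lines, with a bar at the mean of each line. The lines separate in 39 of the 40, and points at 1 on the axis are libraries with no read, as in ‘CX001’ for *bHLH77* BraA10g009370.3C.

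Group Ia holds the stomatal regulators SPEECHLESS, MUTE and FAMA, which are named otherwise, and their relatives, which are members. With bHLH93, which supports flowering in short days, and bHLH61, they numbered 16. Of the 13 tested, 4 were higher, 1 was lower and 8 were not called (background 14.5% and 16.1%). *bHLH96* (BraA02g020820.3C) had 39.5, 65.5 and 41.1 normalised reads in ‘FT’ and 93.4, 197 and 146 in ‘CX001’ (difference 1.53, SE 0.34, adjusted p = 0.0064). Of the 3 tested *bHLH96* matches it alone was called. BraA07g029200.3C (difference -1.67, SE 1.06) and BraA07g036580.3C (mean of 70.1 against 32.3) had lower means in ‘CX001’. *bHLH94* was higher in 2 matches, BraA08g026800.3C with 15.4, 31.8 and 20.03 against 65.1, 56.9 and 50.3 (difference 1.37, SE 0.34, adjusted p = 0.011). The other, BraA09g040530.3C, had 3.85, 6.74 and 1.05 against 22.7, 15.4 and 11.8 (difference 2.003, SE 0.56, adjusted p = 0.019). The latter rests on 12 reads in ‘FT’, and without ‘CX001’ library 1 its adjusted p = 0.0541.

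The *bHLH67* matches went in opposite directions. BraA04g000910.3C had 4.81, 42.4 and 6.32 normalised reads in ‘FT’ and 55.7, 59.8 and 69.6 in ‘CX001’ (difference 2.35, SE 0.70, adjusted p = 0.025). BraA09g051450.3C had 120, 363 and 163 against 72.7, 27.0 and 24.6 (difference -2.37, SE 0.52, adjusted p = 0.0062). ‘FT’ library 2 was the highest of its line for both. For BraA04g000910.3C the call stands only without that library among the 6 fits that leave one out (difference 3.26, adjusted p = 0.000767). It is lost without ‘FT’ library 1 (adjusted p = 0.0848) or 3 (adjusted p = 0.0911) and without ‘CX001’ library 1 (adjusted p = 0.0537), 2 (adjusted p = 0.0662) or 3 (adjusted p = 0.0664).

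That library stood out over the whole group. It was the highest ‘FT’ library in 11 of the 13 tested members of the group, *bHLH93* and *bHLH61* included. This was 84.6%, against 46.9% of all tested members and 32.8% of all tested genes. *bHLH57* (BraA09g001050.3C), the member of the group with the most reads per kb, had 446, 879 and 347 normalised reads against 300, 240 and 434, and the lines overlapped. *bHLH93* (BraA06g029120.3C) had 218, 468 and 298 against 693, 497 and 500 (difference 0.83, SE 0.28, adjusted p = 0.036), under the minimum size. *bHLH61* (BraA10g027340.3C) was read mainly in 1 ‘CX001’ library, with 306, 17.4 and 25.7 against 17.3, 16.4 and 22.1. The 16 guard cell and stomatal lineage markers summed to 571, 891 and 741 in ‘FT’ and to 1029, 732 and 496 in ‘CX001’. ‘FT’ library 2 was the highest of its line there too, with much of the sum from *TMM*. Its matches had 42.35, 152 and 121 (BraA07g025640.3C) and 223, 337 and 239 (BraA05g003140.3C) in ‘FT’. *SPCH* matches and *EPF2* were also highest in ‘FT’ library 2. *SLAC1*, *KAT1*, *FAMA* and *EPF1* matches were not, and *MUTE* matches were divided. In ‘CX001’ library 1 BraA05g003140.3C alone gave 622. Of 12 markers tested, 3 were higher and 5 lower, and none of the 16 was at 0 in either line. The rises were *SLAC1* (1.09) and both *KAT1* matches (1.21 and 1.71). The falls were *TMM* BraA07g025640.3C (-2.35), *EPF2* (-2.54), *MUTE* BraA01g042160.3C (-1.59) and the *FAMA* matches BraA03g040960.3C (-1.03) and BraA01g030050.3C (-1.20). The part of stomatal cells in the values of the 13 tested members was not tested.

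The AIF proteins lack DNA binding and hold back growth in Arabidopsis by pairing with growth-promoting bHLH proteins, and bHLH146 was listed with them. All 14 members were tested, 3 were higher, 2 were lower and 9 were not called (background 14.5% and 16.1%). *bHLH146* had both the largest rise of any member and a fall. BraA09g011660.3C (A09:6829251-6829760) had 0.962, 1.93 and 0 normalised reads in ‘FT’ and 45.3, 66.6 and 95.3 in ‘CX001’ (adjusted p = 0.00011). With 3 reads in ‘FT’, its ratio of 71.7 has a counting interval of 23.2 to 336 (95% exact binomial, counting error only). BraA08g018220.3C had 41.4, 35.6 and 31.6 against 5.66, 7.72 and 5.36 (difference -2.37, SE 0.34, adjusted p = 0.00079). The third match, BraA01g007520.3C, overlapped between the lines.

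*bHLH150* (AIF1) showed the same split. BraA05g039550.3C had 0.962, 1.93 and 1.05 normalised reads in ‘FT’ and 34.0, 21.2 and 17.1 in ‘CX001’ (difference 3.41, SE 0.43, adjusted p = 0.00043), with 4 reads in ‘FT’. BraA03g032300.3C had 45.2, 64.5 and 77.0 against 29.3, 5.79 and 4.28 (difference -2.59, SE 0.64, adjusted p = 0.011). *bHLH147* (AIF3) had 5 matches, of which BraA01g020630.3C was higher, at 59.7, 53.9 and 65.4 against 150, 179 and 139 (difference 1.37, SE 0.21, adjusted p = 0.0011). The match with the most reads, BraA05g030300.3C, had 526, 636 and 576 against 451, 255 and 334 and stayed under the minimum size (difference -0.77, SE 0.21, adjusted p = 0.016). *bHLH149* (BraA06g006160.3C, AIF4) also stayed under it, at 321, 212 and 225 against 411, 403 and 392 (difference 0.69, SE 0.18).

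Relatives of TMO5 and LHW, whose pairing drives cell divisions in the vascular tissue of Arabidopsis, numbered 9, of which 7 were tested. *bHLH30* (BraA07g033850.3C), a TMO5-like gene, was the 1 rise. It had 40.4, 32.7 and 30.6 normalised reads in ‘FT’ and 175, 147 and 92.1 in ‘CX001’ (difference 1.92, SE 0.30, adjusted p = 0.0012). The second *bHLH30* match, BraA07g030550.3C, went the other way, at 258, 237 and 284 against 199, 167 and 105. Its difference stayed under the minimum size (-0.77, SE 0.25, adjusted p = 0.032). The LHW relative *bHLH155* had the most reads of the group, with 876, 864 and 864 against 870, 731 and 773 in BraA04g022580.3C, which was not called. SAC51 relatives, known from the response to thermospermine in the xylem, had 2 members and no call, and *bHLH144* (BraA08g023640.3C) was nearly level at 609, 481 and 548 against 515, 609 and 512. Outside the members, the *SAC51* match BraA02g044560.3C was lower (difference -3.48, SE 0.30) and BraA06g027790.3C was not called (0.66, SE 0.17). None of the 3 tested LRL members, relatives of root hair regulators, was called, and *bHLH82* (BraA03g012100.3C) led them at 275, 256 and 259 against 321, 324 and 338.

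The 6 matches to the tapetum factors of the anther were all under the minimum. The highest of them was *bHLH89* (BraA10g004880.3C), with no read in ‘FT’ and 4.72, 0 and 10.7 normalised reads in ‘CX001’. Of the listed tapetum markers only *AMS* was matched, by BraA07g004220.3C, which was also under the minimum at 1.93, 0 and 2.11 against 4.72, 7.72 and 3.21.

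The jasmonate group holds the repressors JAM2 (bHLH13) and JAM3 (bHLH3) and the activator MYC5 (bHLH28). Of 7 members 4 were tested, 0 were higher and 1 was lower. *bHLH3* (BraA03g046880.3C, A03:23710840-23712210) had 662, 507 and 742 normalised reads in ‘FT’ and 252, 285 and 250 in ‘CX001’ (difference -1.26, SE 0.17, adjusted p = 0.00053). The second *bHLH3* match, BraA01g020360.3C, had 413, 347 and 362 against 269, 349 and 316, and *bHLH13* (BraA10g000650.3C) had 333, 251 and 218 against 249, 361 and 300. Neither was called.

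Of 39 genes of the jasmonate list 37 were tested, 2 were higher and 24 lower, where 16.1% of all genes were lower. The difference from the members was not tested. All of its 22 TIFY matches, repressors that jasmonate itself induces, were tested, of which 19 were lower and 0 higher. The list summed to 36183, 21085 and 18555 normalised reads in ‘FT’ and to 8125, 8848 and 8792 in ‘CX001’. The largest falls were in *TIFY5A* (BraA08g023500.3C, -6.48, SE 0.54) and *TIFY7* (BraA07g029850.3C, -5.79, SE 0.50). *LOX2* (BraA07g025400.3C), a lipoxygenase gene, fell with a wide error (-5.41, SE 1.65), as *TIFY7* BraA07g035430.3C (-5.09), *TIFY5A* BraA09g034900.3C (-4.64) and *TIFY9* BraA03g005650.3C (-4.27) did with narrower ones.

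The 46 members in no role list gave 5 rises and 4 falls among 28 tested. *bHLH92*, known in Arabidopsis from salt and osmotic stress, had the largest fall of any member. BraA06g043630.3C (A06:28470640-28471910) had 329, 41.4 and 27.4 normalised reads in ‘FT’ and 0.944, 0 and 0 in ‘CX001’, a ratio of 0.00237 on 1 read (counting interval 6.1e-05 to 0.0136, adjusted p = 0.00096). The second match, BraA09g019940.3C, had 48.1, 9.63 and 24.2 in ‘FT’ and no read in ‘CX001’, at least 27.5-fold lower (adjusted p = 0.00049). ‘FT’ library 1 was the highest for both, as it was for the jasmonate sum. It was also the highest in 17 of the 28 tested members in no role list (60.7%), against 36.3% of all tested members and 30.9% of all tested genes. In BraA09g019940.3C library 3 stood above library 2, unlike in the jasmonate sum. Both *bHLH92* calls held without any single library. Whether these values share a source with the jasmonate genes was not tested. *bHLH27* (BraA03g055360.3C) had 36.6, 8.67 and 2.11 in ‘FT’ and no read in ‘CX001’, at least 15.9-fold lower (adjusted p = 0.011).

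*bHLH153* had 3 called copies, as *bHLH47* did. BraA05g012920.3C (A05:7059383-7060121) had 120, 112 and 88.5 normalised reads in ‘FT’ and 491, 454 and 469 in ‘CX001’ (difference 2.14, SE 0.17, adjusted p = 3.7e-05). BraA10g004530.3C had 15.4, 10.6 and 4.22 against 47.2, 141 and 160 (difference 3.37, SE 0.58, adjusted p = 0.002). Both were higher in every ‘CX001’ library. BraA08g034220.3C was lower at 55.8, 108 and 51.7 against 20.8, 13.5 and 50.3 (difference -1.44, SE 0.51, adjusted p = 0.045), with the lines almost touching. This call holds without ‘CX001’ library 3 (adjusted p = 0.00979) and is lost without ‘CX001’ library 1 (adjusted p = 0.109) or 2 (adjusted p = 0.141) and without ‘FT’ library 1 (adjusted p = 0.0811), 2 (adjusted p = 0.153) or 3 (adjusted p = 0.0703). The fourth match, BraA03g016910.3C, had 223, 205 and 155 against 241, 197 and 176 and was not called.

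Among the other rises, *bHLH137* (BraA03g015770.3C) had 220, 237 and 229 normalised reads against 455, 841 and 680 (difference 1.48, SE 0.22, adjusted p = 0.00091). *bHLH162* (BraA08g014680.3C) had 3.85, 0 and 0 against 28.3, 29.0 and 28.9 (difference 4.13, SE 0.65, adjusted p = 0.0012), with 4 reads in ‘FT’. *bHLH111* (BraA09g033880.3C) had 26.9, 20.2 and 23.2 against 67.0, 49.2 and 43.9 (difference 1.14, SE 0.30, adjusted p = 0.014), and without ‘CX001’ library 1 the difference of 0.97 falls under the minimum. In all 3 genes the lines did not overlap.

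Copies of the same protein match were set side by side, and no difference between copies was tested. *B. rapa* keeps several copies of many Arabidopsis genes from an ancient triplication of its genome. Of the 88 matches 47 had at least 2 copies and 1 had 5, and 34 had at least 2 tested copies. In 15 of these 34 no copy was called, and in 10 a single copy was. In 4 matches at least 2 copies were called in 1 direction, namely *bHLH77*, *bHLH78*, *bHLH92* and *bHLH94*. In 5 matches copies were called in both directions, namely *bHLH47*, *bHLH67*, *bHLH146*, *bHLH150* and *bHLH153*. The range of differences over the copies of a match had a median of 0.99, against 1.02 over the 4759 other Arabidopsis matches with 2 to 5 tested copies, and reached 7.59 in *bHLH146*. Copies called in both directions were 14.7% of the 34 matches, against 6.11% of those others. How reads shared by near-identical copies were counted is not stated, so the values of copies are uncertain where such reads could be split.

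**Figure D4:**
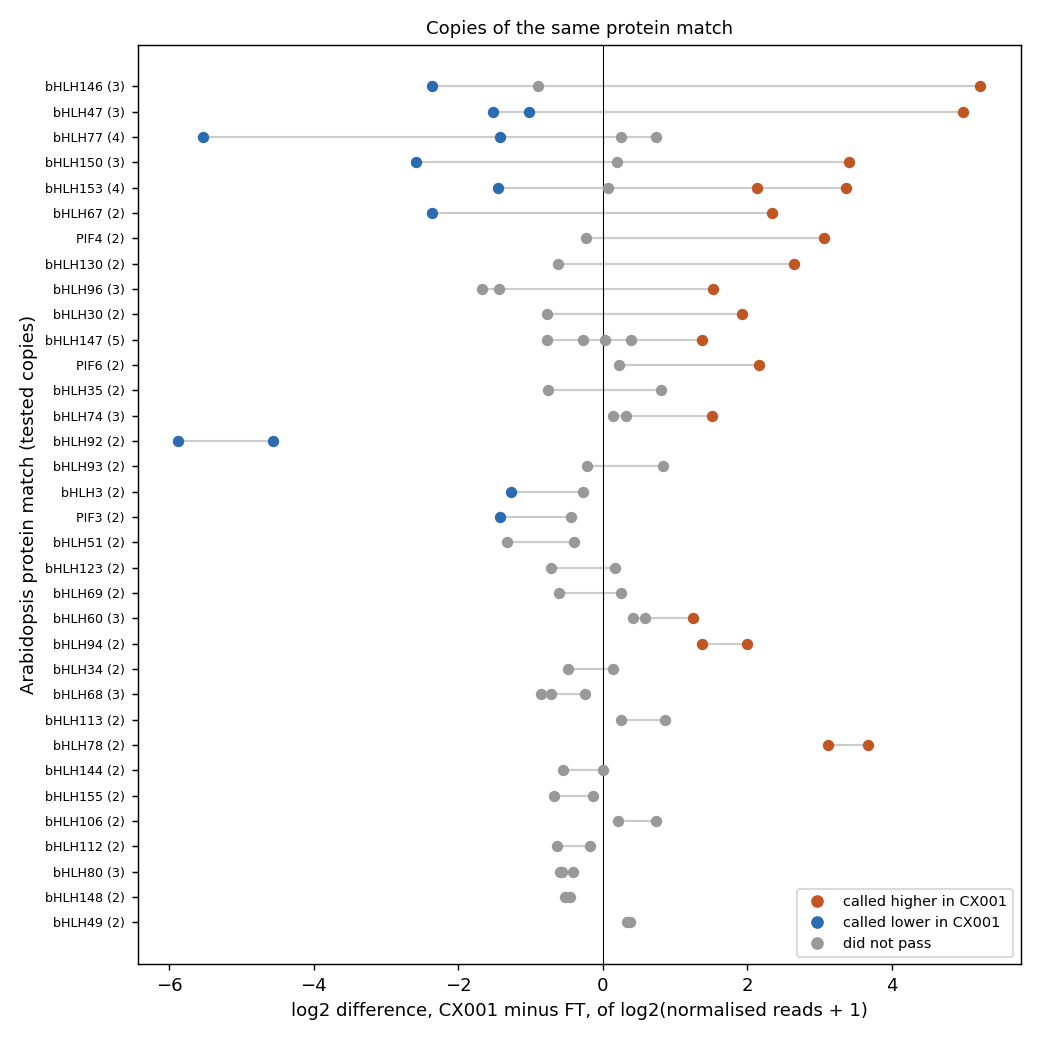
Differences between ‘CX001’ and ‘FT’ on the scale of log2(normalised reads + 1) for the 83 tested copies of the 34 matches with at least 2 tested copies, sorted by the range within a match. Each point is 1 gene and the line joins the copies of a match. Ranges run up to 7.59 in *bHLH146*, and 5 matches hold called copies on both sides of 0.

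Levels were compared between members per kb of coding length, as the mean of both lines. Tested members had a median of 146 normalised reads per kb against 184 over all tested genes, and 48 of the 113 lay above that value. The top 10 were *bHLH77* BraA01g030310.3C at 841 and BraA07g009390.3C at 788, *bHLH144* BraA08g023640.3C at 771, *bHLH60* BraA09g048410.3C at 746 and *bHLH153* BraA05g012920.3C at 741, followed by *bHLH147* BraA05g030300.3C at 735, *bHLH112* BraA09g016280.3C at 699, *bHLH60* BraA07g023060.3C at 697, *bHLH121* BraA01g033380.3C at 599 and *bHLH104* BraA04g007580.3C at 577. Of these 10 only *bHLH153* and *bHLH121* were called. *bHLH112*, known from stress responses, had 897, 813 and 685 normalised reads in ‘FT’ and 544, 1004 and 628 in ‘CX001’. The *bHLH60* matches had 615, 833 and 629 against 870, 960 and 914 (difference 0.41, SE 0.15) in BraA09g048410.3C and 492, 552 and 573 against 840, 857 and 739 (difference 0.59, SE 0.12) in BraA07g023060.3C, where the lines did not overlap but the differences stayed under the minimum size. The median SD over the mean of the libraries of a line was 21.2% in ‘FT’ and 23.7% in ‘CX001’.

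At the low end, 14 members had no read in ‘FT’ and at least 1 in ‘CX001’, and 15 the converse. Most were read too little for a statement, and among them *bHLH47* BraA01g024930.3C, *bHLH77* BraA10g009370.3C and *bHLH92* BraA09g019940.3C reached a mean of 20 or more in the opposite line. Some members lie side by side on a chromosome. The *bHLH28* matches BraA06g041620.3C and BraA06g041630.3C are neighbours on A06 and BraA09g022350.3C and BraA09g022370.3C on A09, and of these only BraA09g022350.3C was read enough to be tested, at 40.4, 32.7 and 21.1 normalised reads against 34.0, 3.86 and 31.1.

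Of the 83 bHLH genes named otherwise, 67 were tested, 12 were higher and 20 lower. Beside *PIL1*, *FIT* and *PRE5*, the largest differences were in *SCRM* (BraA09g058250.3C), a partner of the stomatal regulators, with no read in ‘FT’ and 48.1, 61.8 and 73.9 normalised reads in ‘CX001’. Of its other matches BraA06g038100.3C was lower (difference -1.23, SE 0.27, adjusted p = 0.0061) and BraA02g037090.3C was not called. *BEE2* (BraA03g060080.3C), a brassinosteroid-induced growth gene, had 0, 3.85 and 2.11 against 101, 75.3 and 122. The second *BEE2* match, BraA08g021100.3C, was read far more, at means of 876 against 806, and was not called (difference -0.10, SE 0.25). *PRE4* (BraA06g019260.3C) rested on 1 read in ‘CX001’ against 50.1, 21.2 and 19.0 in ‘FT’. Their share of falls, 20 of 67, stands beside 16 of 113 for the members and 16.1% of all genes, and no test of these shares was made.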

How the data were processed

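Stem RNA of ‘FT’ and ‘CX001’ was sequenced by the authors on an Illumina instrument, with 3 libraries per line. Per the methods, the authors aligned filtered reads with HISAT2, assembled transcripts with StringTie and tested genes by DESeq2. TopHat2 is a further tool in the submitters' processing notes, and strand use is not given in the sources used here. The signal values used were deposited by the authors as 1 mean per line of read counts divided by size factors. The fold changes, p-values, adjusted p-values and directions of the authors, which the table also holds, were not used. The column of coding length served for levels per kb. Coordinates and matches are those of the table.

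Each mean is a sum of 3 whole read numbers, each times the value of 1 read of its library (the lowest 3 values of a line). The only whole numbers that gave the printed mean were searched for each gene (largest difference 4.9e-11). A single solution was found for 33067 genes in ‘CX001’ and 33073 in ‘FT’, and 24 genes with large means were left out. For larger means the reads of 1 library were searched only within a set fold of an even share. In simulated data all single solutions were right (1999 and 1998 of 2000 genes). The simulated libraries were only moderately uneven, so they did not check strongly uneven genes at larger means. log2(normalised reads + 1) was fitted with limma 3.58.1 (lmFit and eBayes with trend) in R 4.3.3, for genes whose mean reached 10 in 1 of the lines. Adjustment was by Benjamini-Hochberg over 25969 genes. Intervals and the floor of 3 reads cover counting error only.

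Members, role lists and pathway lists were chosen with earlier results of these data known. Named are all called and all PIF members, the top 10 per kb, members with 3 or fewer reads in 1 line and a mean of 20 or more in the opposite one, the highest member of each role, and up to 6 called genes per pathway list. A few further members and pathway genes were chosen after their values were seen. After seeing the data, 5 genes that share a marker's gene name but match another protein (methionine synthase for *MS1*, a thiolase for *KAT1*, a phosphatase for *PP2A1*) were left out of the marker lists. Alternatives were other minimum sizes, filters, scalings, pseudocounts, weights and leaving out each library. Scripts ran on Python 3.11.15 with pandas 2.3.3, scipy 1.17.1, matplotlib 3.10.9 and numpy 2.4.6. No sequences of members were used here.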

Additional observations from a re-analysis of the deposited data

How the results depend on the processing

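The counts of 24 higher and 16 lower members kept within 1.5 times under most settings tried. With a minimum log2 difference of 2 they were 14 and 8, and with 1 copy per distinct protein match, the one with the highest mean, the 155 members became 88 with 13 higher and 10 lower. Leaving out each library in turn gave 21 to 25 higher and 14 to 17 lower members, and a median difference of -0.10 to 0.0099. Of 628 values of single called members under alternatives, 580 kept their call, 48 lost it and 0 turned direction. In 34 of the 40 called members the call held in all 6 fits that left a library out. The other 6 are named with their values in the report, and none of their directions turned. With a pseudocount of 10, 7 calls were lost, and with voom weights 1 was, *bHLH78* BraA02g039720.3C (adjusted p = 0.0657 from limma). A log2 without a pseudocount could not be taken where libraries are at 0, so 0.1 was used in its place (24 higher, 15 lower), and weights per library gave 24 and 19; both settings were chosen after seeing the data. No paired analysis was possible because the labels give no replicate numbers and the libraries worked out from the means carry none. Depth limits members near 0, where 3 reads over a line amount to a mean of 0.993.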
